A study of Mus musculus with 9 samples.

Results

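The genes described here are the axon guidance ligand and receptor families in liver fibroblasts: the semaphorins with their plexin and neuropilin receptors, the Slits with the Robo receptors, the netrins with the Unc5 receptors, and the ephrins with the Eph receptors. Members were picked by gene symbol, from classes 3 to 7 of the semaphorins and from the named members of the other families. The symbol rule used no measured value, but the families were chosen with earlier results of these data known. The symbols matched 69 of 24453 genes, of which 8 had no read in any library (Epha5, Epha6, Epha8, Epha10, Robo3, Slit1, Ntn5 and Sema4f), which left 61 members. They were 19 semaphorins, 9 plexins, 2 neuropilins, 2 Slits, 3 Robo receptors, 3 netrins, 4 Unc5 receptors, 8 ephrins, 10 Eph receptors and Plxna4os1, an antisense transcript that carries the symbol of a plexin gene but is not one. Of the 61 members, 54 passed the filter on low counts and were tested.

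Axon guidance proteins were first known for steering the growth cones of nerve fibres, and many of them also act on migrating mesenchymal cells and on endothelial cells. Semaphorins signal through plexins, and most of the secreted class 3 semaphorins need a neuropilin as co-receptor. Slits are large secreted ligands of the Robo receptors, netrins are bound by the Unc5 receptors and by Dcc and neogenin, and the membrane-anchored ephrins and Eph receptors signal into both of the cells that touch.

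The data are RNA sequencing libraries of C57BL/6J livers, 3 per group, with the cells of 3 to 5 mice pooled in every library. HSCs (hepatic stellate cells, the vitamin A-storing pericytes of the liver) were separated by density gradient from healthy wild-type livers, and no transgene is given for them. CCl4-fib were CD45- GFP+ cells sorted from Col1a2-GFP Tg mice, which carry GFP under a collagen promoter, after carbon tetrachloride (CCl4) 2 times per week for 8 weeks. NASH-fib were CD45- GFP+ cells sorted from Col1a2-GFP Tg mice deficient in the melanocortin 4 receptor (MC4R-KO), which were fed Western diet for 20 weeks from an age of 8 weeks. Ages were given only for the NASH mice. HSCs therefore differed from both kinds of fibroblasts in isolation method and transgene as well as in disease, and NASH-fib differed from CCl4-fib in genotype, diet, agent and duration, so these cannot be told apart. Libraries held 3071070 to 5634273 reads on genes, and a value below is the deposited one, a read count multiplied by 1 factor per library, with 3 reads worth 2.38 to 4.37. Values given 3 in a row are those of libraries 1, 2 and 3 of a group.

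Mc4r, the deleted gene, had 0 reads in HSCs and CCl4-fib and 4, 13 and 0 reads in the NASH-fib libraries, so its level does not check the labels. The labelled cell types were checked by marker lists, summed over genes. Quiescent stellate markers summed to 48600 to 58405 in HSCs, 8132 to 20719 in CCl4-fib and 18905 to 31998 in NASH-fib, with 5 of 9 lower in CCl4-fib and 6 of 9 in NASH-fib. Rgs5, a regulator of G protein signalling, made up most of the NASH-fib sum and was not called there (log2 fold change 0.08 ± 0.60, adjusted p = 0.972), and without it, a choice made after its values were seen, the sums were 30894 to 37682, 4340 to 7302 and 2168 to 4279, with NASH-fib lowest. Lrat, the retinol-esterifying enzyme of stellate cells, was lower in both kinds of fibroblasts (log2 fold change -5.70 ± 0.53 in CCl4-fib and -5.30 ± 0.53 in NASH-fib). Activated fibroblast markers summed to 6764 to 12067 in HSCs, 50998 to 57347 in CCl4-fib and 29058 to 33282 in NASH-fib, with 7 of 8 higher in CCl4-fib and 6 of 8 in NASH-fib. Among them were Col1a1 (log2 fold change 3.99 ± 0.35 in CCl4-fib and 2.75 ± 0.35 in NASH-fib) and Acta2 (6.57 ± 0.38 and 6.81 ± 0.38). Postn, of the same list, was lower in NASH-fib (-1.71 ± 0.42, adjusted p = 0.0225) and did not pass the test in CCl4-fib (-1.24 ± 0.42, adjusted p = 0.0511), and Col3a1 did not pass it in NASH-fib (0.99 ± 0.37, adjusted p = 0.131). Other cell types were also read. Endothelial markers summed to 7585 to 14173 in HSCs, 281 to 432 in CCl4-fib and 1256 to 3740 in NASH-fib. Hepatocyte markers summed to 23937 to 43258, 2138 to 3037 and 7718 to 28382, and leukocyte markers to 3059 to 11281, 333 to 740 and 3857 to 5913, in the same order of groups. Mesothelial markers (601 to 985, 16042 to 22183 and 25119 to 31713), cholangiocyte markers (63.1 to 226, 3479 to 4753 and 5971 to 11605) and smooth muscle markers (243 to 413, 2972 to 14430 and 3805 to 21755) were low in HSCs and high in fibroblasts. Spp1 made up most of the cholangiocyte sum in NASH-fib (10729, 4847 and 5255). Krt7, Krt19 and Sox9 of that list were also higher in both kinds of fibroblasts. Epcam was higher in NASH-fib (4.60 ± 0.87, adjusted p = 0.00528) and not called in CCl4-fib (1.21 ± 0.87, adjusted p = 0.323), and Cldn7 was not tested. Schwann cell and neuron markers summed to at most 97.6 in every library, and Sox10 and Snap25 had 3 reads or fewer in every library. The plot of marker sums shows these lists side by side.

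**Figure D1:**
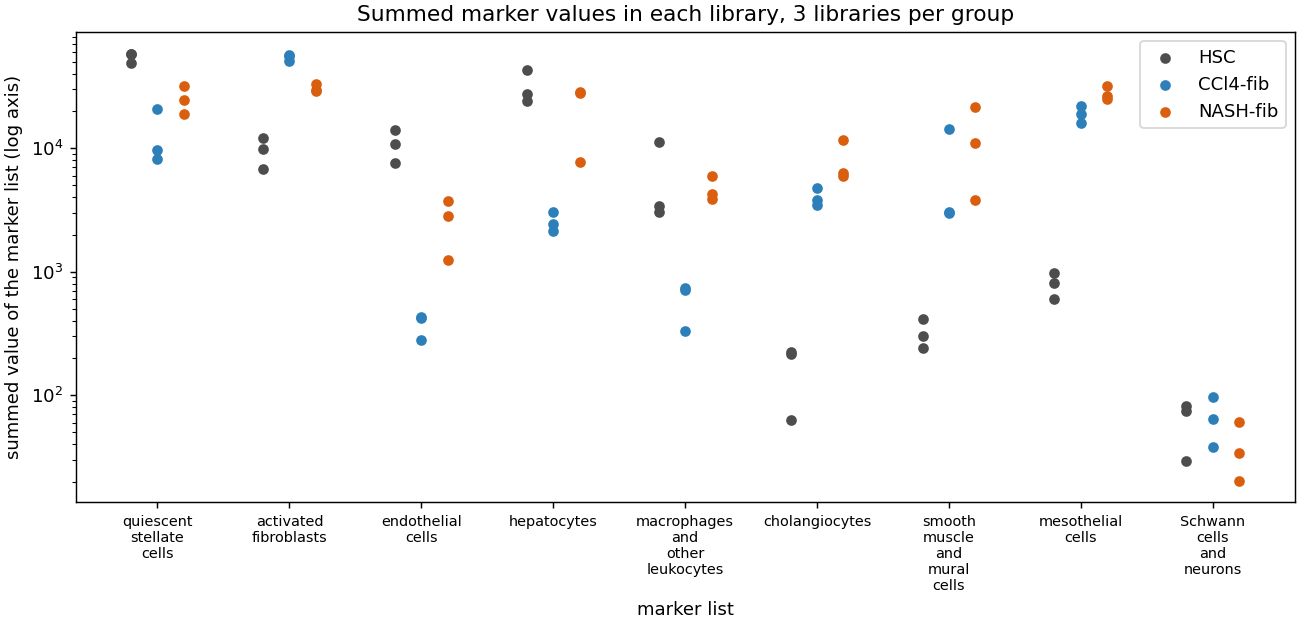
Summed deposited values of 9 marker lists (x axis) in each library, on a log axis, with 3 points per group for HSCs (grey), CCl4-fib (blue) and NASH-fib (orange). Endothelial sums ran from 7585 to 14173 in HSCs, above the 1256 to 3740 of NASH-fib and the 281 to 432 of CCl4-fib, and mesothelial sums were lowest in HSCs and highest in NASH-fib.

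Differences were tested by limma on log2(value + 1) with 1 fit over all 13651 genes kept, fold changes are given with their SE, and adjusted p-values are Benjamini-Hochberg values over those genes. Calls required a change by a factor of 2 or more (1 on the log2 scale) together with an adjusted p below 0.05. In CCl4-fib against HSCs, 15 members were higher and 15 lower (55.6% of the 54 tested), where 16.2% of all genes tested were called higher and 11.7% lower, 27.8% in all. In NASH-fib against HSCs, 10 members were higher and 9 lower (35.2%), where 8.23% of all genes were called higher and 4.3% lower, 12.5% in all. In NASH-fib against CCl4-fib, 6 members were higher and 2 lower (14.8%), where 4.97% of all genes were called higher and 5.66% lower, 10.6% in all. Calls among the members thus came in both directions, and the median log2 fold changes of members and of all genes were 0.56 against 0.18 in CCl4-fib, 0.01 against -0.02 in NASH-fib and -0.04 against -0.11 between the fibroblasts. With members at 3 reads or fewer in a whole group set at their lower bound, the median in NASH-fib against HSCs was -0.02. The first 2 comparisons share the HSC libraries and each fibroblast group enters 2 comparisons, so the 3 sets of values are not independent. In all, 34 members were called in at least 1 comparison and 20 were tested and called in none.

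**Figure D2:**
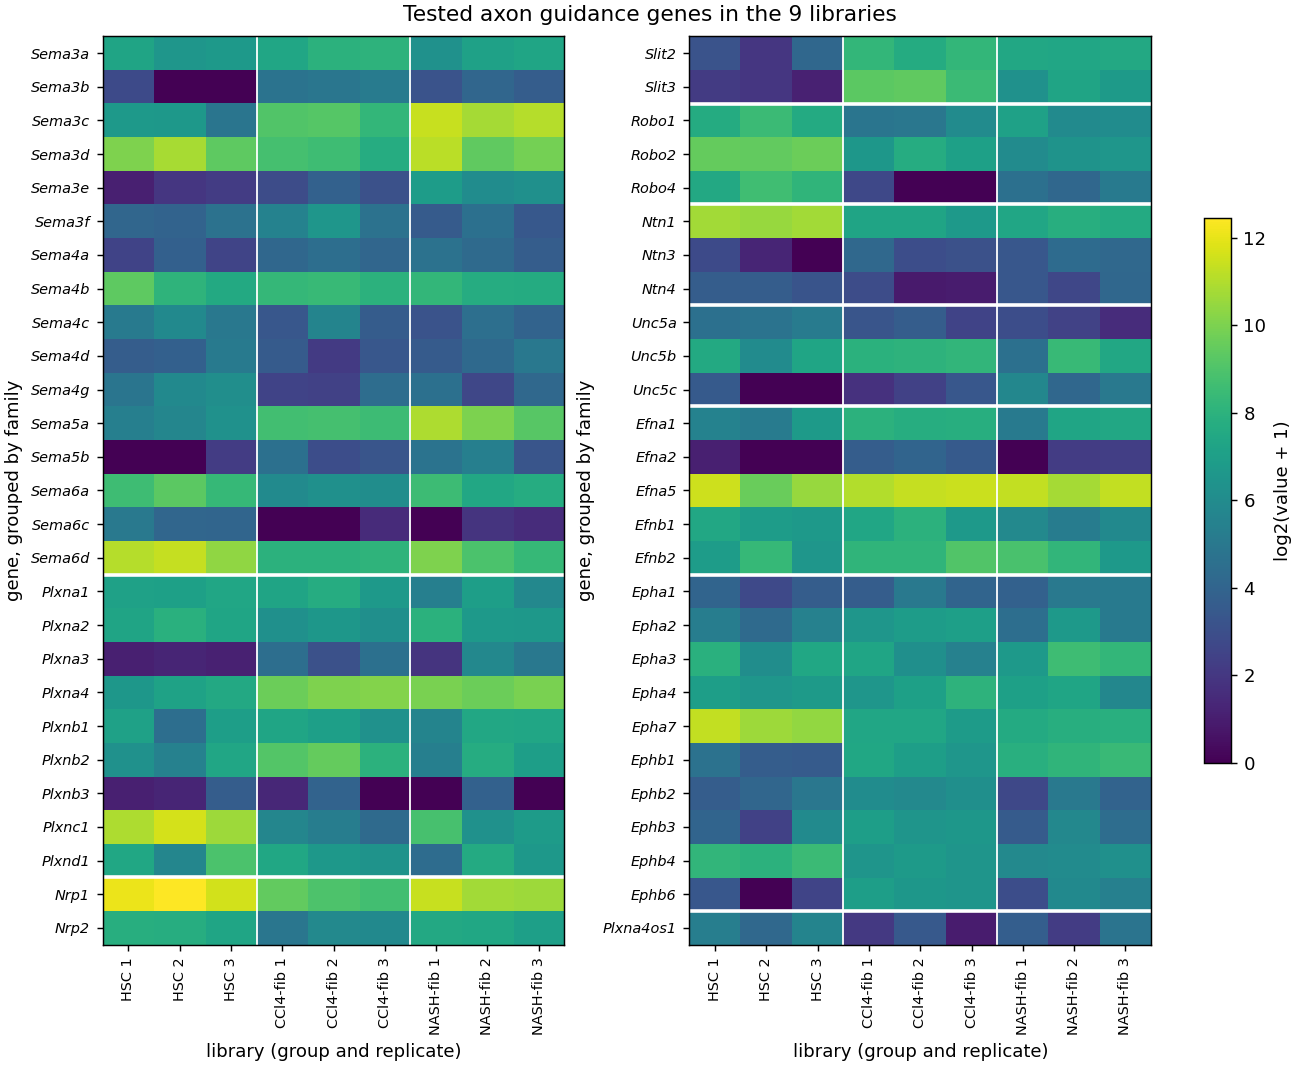
Log2(value + 1) of the 54 tested members (rows, grouped by family with white lines between families) in the 9 libraries (columns), with brighter colours for higher values. Nrp1, Epha7, Ntn1 and Plxnc1 were bright in the 3 HSC libraries, Sema3c, Sema5a and Plxna4 in the fibroblast libraries, and Efna5 in every library.

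A few members, picked after their values were seen, are shown with the 250 bases before their start, from RefSeq on GRCm38.p6 (the same sequence build as mm10), as examples of the patterns described below: Sema3c and Slit3 as ligands raised in both kinds of fibroblasts, Sema3e as a ligand raised in NASH-fib, and Nrp1 as the member with the highest mean level in HSCs. Sema3c lies at chr5:17574816-17730267, Sema3e at chr5:14025276-14256689, Slit3 at chr11:35121456-35708507 and Nrp1 at chr8:128359073-128505475, all on the plus strand, and each stretch ends 1 base before the gene's first exon. Capitals mark matches on either strand to the GC box GGGCGG or the E-box CANNTG.
Sema3c, chr5:17574566-17574815: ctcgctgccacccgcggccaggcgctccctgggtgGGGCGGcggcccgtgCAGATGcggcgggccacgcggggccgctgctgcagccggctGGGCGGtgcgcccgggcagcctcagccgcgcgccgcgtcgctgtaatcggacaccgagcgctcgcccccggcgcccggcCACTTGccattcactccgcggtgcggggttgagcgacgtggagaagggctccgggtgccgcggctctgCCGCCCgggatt
Sema3e, chr5:14025026-14025275: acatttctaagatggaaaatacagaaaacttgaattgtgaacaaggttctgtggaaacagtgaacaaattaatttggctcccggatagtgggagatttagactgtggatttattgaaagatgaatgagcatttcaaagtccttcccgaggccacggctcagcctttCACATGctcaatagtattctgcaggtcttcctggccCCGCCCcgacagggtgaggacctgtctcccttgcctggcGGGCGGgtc
Slit3, chr11:35121206-35121455: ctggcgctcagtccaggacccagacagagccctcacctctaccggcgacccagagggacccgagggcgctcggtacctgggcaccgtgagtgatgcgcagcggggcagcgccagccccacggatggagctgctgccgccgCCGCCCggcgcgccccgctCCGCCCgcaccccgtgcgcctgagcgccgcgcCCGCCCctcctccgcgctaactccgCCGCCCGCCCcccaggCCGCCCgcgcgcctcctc
Nrp1, chr8:128358823-128359072: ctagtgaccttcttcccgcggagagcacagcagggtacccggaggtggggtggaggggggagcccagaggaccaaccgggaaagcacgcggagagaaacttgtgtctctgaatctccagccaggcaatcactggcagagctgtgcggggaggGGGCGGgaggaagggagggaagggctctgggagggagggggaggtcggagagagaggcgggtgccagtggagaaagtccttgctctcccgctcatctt
The Sema3c and Slit3 stretches were rich in G and C (78.4% and 78.8%), with 39 and 35 CpG dinucleotides, whereas that of Sema3e held 48% and 7, and that of Nrp1 64.4% and 11. Slit3 had 6 GC boxes, of which a pair overlap, Sema3c 3, Sema3e 2 and Nrp1 1.

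A promoter entry within 100 bases of the start in the file was found for 46 members. The GC box was in 76.1% of these 46 stretches and in 43.4% of the 16303 stretches of the same length found for genes of the file, and the E-box in 32.6% and 62.9%. Median GC content was 65.8% in members and 55.6% in all. Matches to the AP-1 motif TGANTCA (2.17% and 6.5%) and to the TEAD motif GGAATG (13% and 11.6%) were few in both. Among members called higher in CCl4-fib, 3 of 13 stretches held an E-box and 11 of 13 a GC box, against 5 of 9 and 6 of 9 of those called lower. In NASH-fib these were 2 of 8 and 5 of 8 of members called higher, against 2 of 5 and 4 of 5 of those called lower. The GC box thus went the other way in NASH-fib. These are matches of letters, with no measure of binding.

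Class 3 semaphorins are secreted ligands that bind neuropilin and plexin complexes. Of the 7 members, 6 were tested, with 2 higher and 1 lower in CCl4-fib and 3 higher in NASH-fib against HSCs. Sema3c, which guides migrating neural crest cells in the developing heart, read 102, 99.0 and 27.5 in HSCs, 537, 567 and 299 in the CCl4-fib libraries, and 2757, 1740 and 2116 in NASH-fib. The 3 groups did not overlap, with HSCs lowest and NASH-fib highest. Its log2 fold change against HSCs was 5.03 ± 0.52, adjusted p = 0.000143, in NASH-fib and 2.76 ± 0.52, adjusted p = 0.00286, in CCl4-fib, both called whichever library was left out. Sema3e, the ligand of plexin D1 in vessel patterning, read 1.17, 2.91 and 3.59 in HSCs, 6.35, 13.6 and 7.63 in the CCl4-fib libraries, and 116, 65.9 and 74.7 in NASH-fib. HSCs had 3 reads or fewer in each library, and all 3 NASH-fib libraries stood above every other library. The rise in NASH-fib was at least 22.3-fold (log2 fold change 4.63 ± 0.58, adjusted p = 0.000444), while CCl4-fib, at least 2.41-fold above HSCs, did not pass the test (1.52 ± 0.58, adjusted p = 0.0748). Sema3b, a semaphorin known as a tumour suppressor candidate, read 5.84, 0 and 0 in HSCs, 25.4, 28.9 and 35.3 in the CCl4-fib libraries, and 8.16, 16.03 and 11.8 in NASH-fib. Both fibroblast groups stood above the HSC libraries, the latter holding 5 reads at most. It rose in CCl4-fib by 4.01 ± 0.80, adjusted p = 0.00418. In NASH-fib it passed the limit by the narrowest margin (2.73 ± 0.80, adjusted p = 0.04999) and was not called without HSC 2, HSC 3, CCl4-fib 1, CCl4-fib 2, CCl4-fib 3, NASH-fib 1, NASH-fib 2 or NASH-fib 3 (log2 fold change 2.27 to 2.96, adjusted p = 0.0551 to 0.152), 1 library being left out at a time here and below. Sema3d ranged from 659 to 1836 in HSCs, 211 to 437 in CCl4-fib and 689 to 2293 in NASH-fib, with a log2 fold change of -1.73 ± 0.53, adjusted p = 0.0347, in CCl4-fib. It was not called without HSC 1, HSC 2, CCl4-fib 1, CCl4-fib 2 or CCl4-fib 3 (log2 fold change -1.93 to -1.35, adjusted p = 0.0605 to 0.125). Sema3a and Sema3f were tested and not called.

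Within the class the leading gene was not the same in each group. Levels between genes are given as RPKM (the value per kb of exon, scaled to a common library total), and Sema3d was above Sema3c in 3 of 3 HSC libraries, while Sema3c was above Sema3d in 3 of 3 CCl4-fib and 3 of 3 NASH-fib libraries. Sema3d held 76.9% to 88% of the summed class 3 RPKM in HSCs, and Sema3c held 4.3% to 9.63% of it. In NASH-fib Sema3c held at least 59.1% of the sum. The sum itself was 29.0 to 71.8 in HSCs, 33.7 to 55.5 in CCl4-fib and 112 to 211 in NASH-fib, so HSCs and CCl4-fib overlapped and NASH-fib stood above both.

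Classes 4 to 7 are mostly bound to the membrane. Of 12 members 10 were tested, with 2 higher and 4 lower in CCl4-fib, and 2 higher and 2 lower in NASH-fib against HSCs. Sema5a, a transmembrane semaphorin with thrombospondin repeats, read 40.9, 51.0 and 76.5 in HSCs, 416, 431 and 367 in the CCl4-fib libraries, and 1921, 1023 and 587 in NASH-fib. Each fibroblast library was above each HSC library, and the spread was widest within NASH-fib. Its log2 fold change was 4.25 ± 0.45, adjusted p = 0.000168, in NASH-fib and 2.87 ± 0.45, adjusted p = 0.00109, in CCl4-fib. Sema5b, of the same class, read 0, 0 and 3.59 in HSCs, 23.0, 6.80 and 8.59 in the CCl4-fib libraries, and 25.8, 41.0 and 8.85 in NASH-fib. No fibroblast library fell to the level of the HSC libraries, which had 3 reads at most, and the rise was at least 6.60-fold in NASH-fib (3.75 ± 0.87, adjusted p = 0.0158) and at least 3.35-fold in CCl4-fib (2.87 ± 0.87, adjusted p = 0.0319). In NASH-fib Sema5b was not called without HSC 1, HSC 2 or NASH-fib 2 (log2 fold change 3.29 to 3.38, adjusted p = 0.0507 to 0.0668), and in CCl4-fib it was not called without HSC 1, HSC 2, CCl4-fib 1, CCl4-fib 2 or CCl4-fib 3 (log2 fold change 2.38 to 3.19, adjusted p = 0.055 to 0.12).

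Class 6 semaphorins, which act both as ligands and as receptors, were lower in CCl4-fib for the 3 members tested. Sema6d, a ligand of plexin A1 in the heart, read 2112, 2655 and 1350 in HSCs, 255, 252 and 272 in the CCl4-fib libraries, and 1062, 492 and 328 in NASH-fib. HSCs were highest, NASH-fib intermediate and CCl4-fib lowest, with no overlap. The log2 fold change was -2.92 ± 0.44, adjusted p = 0.00094, in CCl4-fib and -1.82 ± 0.44, adjusted p = 0.0211, in NASH-fib, where it was not called without HSC 1, HSC 2, NASH-fib 2 or NASH-fib 3 (log2 fold change -1.77 to -1.44, adjusted p = 0.0678 to 0.0846). Sema6a, a ligand of plexins A2 and A4, read 385, 645 and 324 in HSCs, 61.1, 74.8 and 68.7 in the CCl4-fib libraries, and 374, 175 and 206 in NASH-fib. Its CCl4-fib values lay below all others, while NASH-fib overlapped with HSCs in a single library. It fell in CCl4-fib (-2.65 ± 0.41, adjusted p = 0.00103) and did not pass the test in NASH-fib (-0.86 ± 0.41, adjusted p = 0.258). Sema6c, the least abundant of the 3, read 31.6, 16.02 and 15.5 in HSCs, 0, 0 and 1.91 in the CCl4-fib libraries, and 0, 2.67 and 1.97 in NASH-fib. Fibroblasts of both kinds had 3 reads or fewer in each library, and the fall was at least 8.10-fold in CCl4-fib (-3.87 ± 0.82, adjusted p = 0.00566) and at least 6.51-fold in NASH-fib (-3.24 ± 0.82, adjusted p = 0.0245). In NASH-fib Sema6c was not called without HSC 1, HSC 2, HSC 3 or NASH-fib 1 (log2 fold change -3.41 to -2.66, adjusted p = 0.0584 to 0.113). Of class 4, Sema4g was lower in CCl4-fib, from 28.1 to 69.3 in HSCs to 4.25 to 21.0 (-2.50 ± 0.76, adjusted p = 0.0323), and was not called without HSC 2, HSC 3, CCl4-fib 1 or CCl4-fib 2 (log2 fold change -2.37 to -2.14, adjusted p = 0.0822 to 0.118). Sema4a, Sema4b, Sema4c and Sema4d were not called.

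Neuropilins bind class 3 semaphorins and vascular endothelial growth factors. Nrp1 read 4345, 5603 and 3118 in HSCs, 709, 502 and 408 in the CCl4-fib libraries, and 2694, 1706 and 1594 in NASH-fib. The groups did not overlap, and their order from high to low was HSCs, NASH-fib, CCl4-fib. It fell in CCl4-fib (-3.01 ± 0.37, adjusted p = 0.000248), whereas NASH-fib did not pass the test (-1.12 ± 0.37, adjusted p = 0.0777). Nrp2 read 222, 214 and 158 in HSCs, 28.6, 57.0 and 60.1 in the CCl4-fib libraries, and 179, 172 and 131 in NASH-fib. CCl4-fib lay below all others, and NASH-fib and HSCs overlapped. The log2 fold change was -2.06 ± 0.41, adjusted p = 0.00388, in CCl4-fib and -0.30 ± 0.41, adjusted p = 0.785, in NASH-fib. In bulk libraries fewer cells of a type and less RNA per cell cannot be told apart, and endothelial cells, which express neuropilins, gave marker sums in the same order of groups. Of the 12 endothelial markers, 12 were lower in CCl4-fib and 8 in NASH-fib against HSCs, and 8 were higher in NASH-fib than in CCl4-fib, with Tie1 at 3 reads or fewer in each CCl4-fib library. Their part in the results for Nrp1, Nrp2 and Sema6a was not tested.

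Plexins transmit the semaphorin signal through their GTPase-activating domain, and 3 of the 9 tested were higher and 1 lower in CCl4-fib, with 1 higher and 1 lower in NASH-fib. Plxnc1, the receptor of semaphorin 7A, read 1921, 3260 and 1604 in HSCs, 52.4, 37.4 and 19.1 in the CCl4-fib libraries, and 453, 77.5 and 114 in NASH-fib. HSC libraries were far above both fibroblast groups, and NASH-fib 1 was the highest fibroblast library. The fall was -5.97 ± 0.64, adjusted p = 0.000115, in CCl4-fib and -3.75 ± 0.64, adjusted p = 0.00287, in NASH-fib. Its known ligand Sema7a was not tested, with at most 9 reads in any library. Plxna4, a receptor for class 3 and class 6 semaphorins, went up. It read 97.0, 144 and 179 in HSCs, 812, 1064 and 1146 in the CCl4-fib libraries, and 977, 811 and 975 in NASH-fib. The fibroblast libraries lay in 1 range well above HSCs. Its log2 fold change was 2.87 ± 0.33, adjusted p = 0.000187, in CCl4-fib and 2.75 ± 0.33, adjusted p = 0.000382, in NASH-fib, and the difference between the fibroblasts was -0.12 ± 0.33, adjusted p = 0.838. Plxna4 made up 20.9% to 30.2% of the summed RPKM of A-type plexins in HSCs and at least 70.7% in CCl4-fib and 67.3% in NASH-fib.

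The other plexins that passed the test did so in CCl4-fib. Plxnb2, a broadly expressed receptor of class 4 semaphorins, read 78.3, 43.7 and 164 in HSCs, 547, 737 and 259.5 in the CCl4-fib libraries, and 40.8, 209 and 126 in NASH-fib. CCl4-fib was above both other groups in every library (2.50 ± 0.68, adjusted p = 0.0205), and Plxnb2 was not called without HSC 1, HSC 2, CCl4-fib 1 or CCl4-fib 2 (log2 fold change 2.05 to 2.46, adjusted p = 0.0606 to 0.0878). Plxna3 read 1.17, 1.46 and 1.2 in HSCs, 21.4, 7.65 and 22.9 in the CCl4-fib libraries, and 2.72, 54.3 and 30.5 in NASH-fib. It had 1 read in each HSC library and rose at least 4.53-fold in CCl4-fib (2.88 ± 0.95, adjusted p = 0.0455), where it was not called without HSC 1, HSC 2, HSC 3, CCl4-fib 1, CCl4-fib 2, CCl4-fib 3 or NASH-fib 3 (log2 fold change 2.62 to 3.35, adjusted p = 0.0581 to 0.134). In NASH-fib its mean was at least 7.64-fold above HSCs without passing the test (3.04 ± 0.95, adjusted p = 0.0666), and NASH-fib 1 held only 2 reads. Plxna1, Plxna2, Plxnb1, Plxnb3 and Plxnd1, the receptor of Sema3e, were not called in any comparison.

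**Figure D3:**
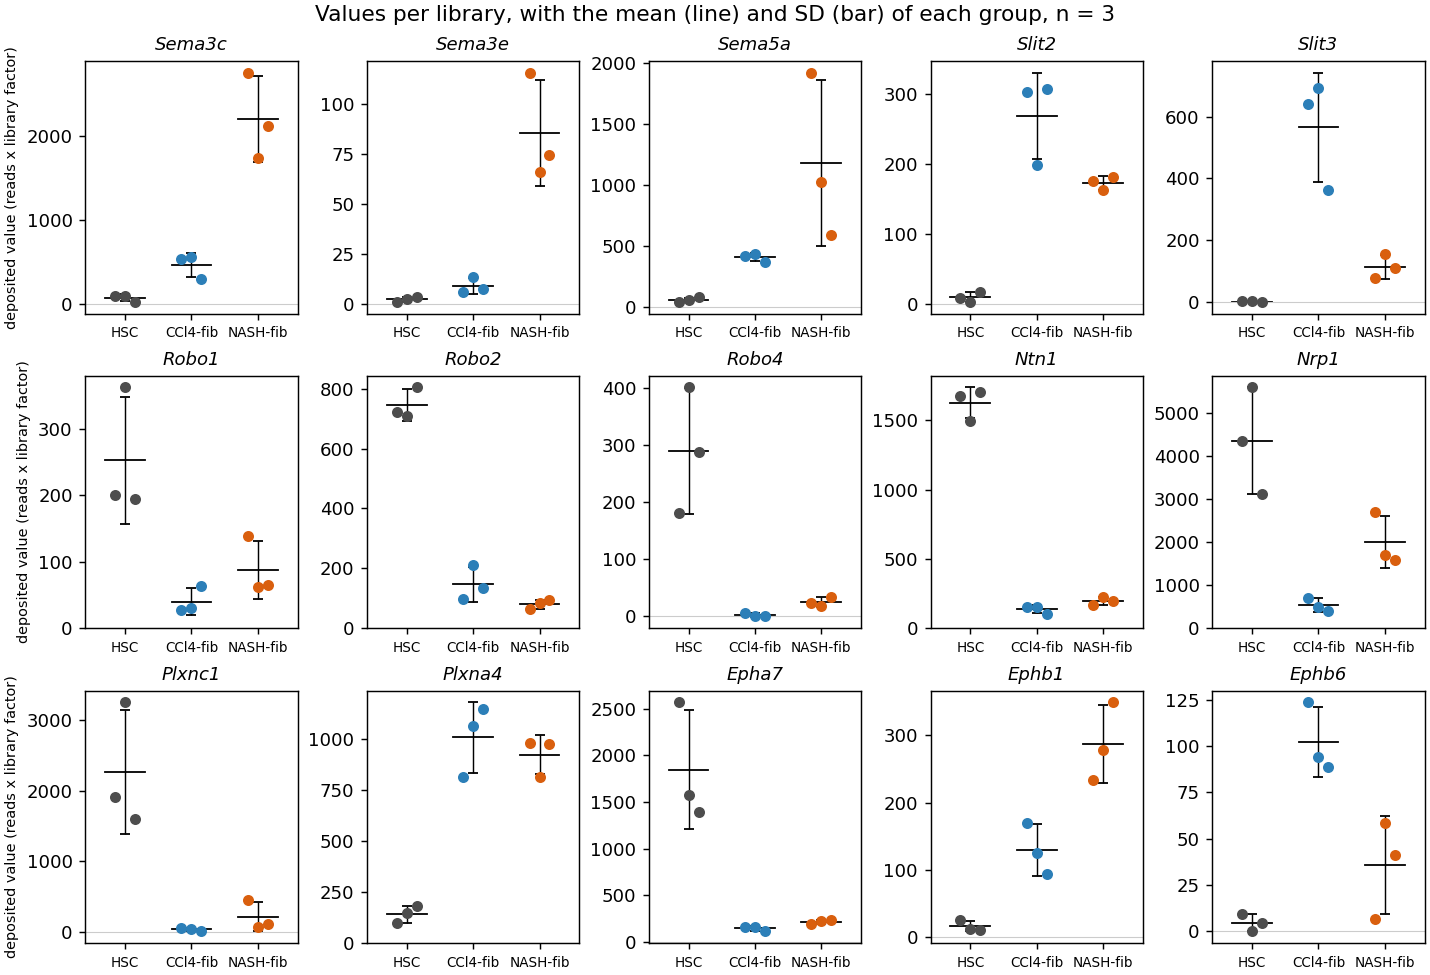
Deposited values (y axis, linear, each gene on its own scale) of 15 members in the 3 libraries of each group, with the mean as a line and the SD as a bar. Sema3c and Sema3e were highest in NASH-fib, Slit2 and Slit3 in CCl4-fib, and Robo2, Robo4, Ntn1, Nrp1, Plxnc1 and Epha7 in HSCs.

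The Slit and Robo families moved in opposite directions, with 2 of 2 Slits higher in both kinds of fibroblasts and 3 of 3 Robo receptors lower in CCl4-fib, 2 of them also in NASH-fib. Slit3 read 3.51, 2.91 and 1.2 in HSCs, 641, 691 and 363 in the CCl4-fib libraries, and 77.5, 155 and 111 in NASH-fib. HSC libraries held 3 reads at most, CCl4-fib was highest and no groups overlapped. The rise was at least 148-fold in CCl4-fib (log2 fold change 7.33 ± 0.49, adjusted p = 1.24e-05) and at least 30.0-fold in NASH-fib (5.04 ± 0.49, adjusted p = 9.81e-05). Slit2 read 8.18, 2.91 and 16.7 in HSCs, 302, 198 and 307 in the CCl4-fib libraries, and 175, 162 and 182 in NASH-fib. It was low in each HSC library and high in each fibroblast library, and CCl4-fib was above NASH-fib without overlap. The log2 fold change was 4.95 ± 0.54, adjusted p = 0.000124, in CCl4-fib and 4.34 ± 0.54, adjusted p = 0.000426, in NASH-fib. The markers of mesothelial cells were higher in both kinds of fibroblasts, 6 of 6 in each, as were 6 of 7 smooth muscle markers in each. Mesothelial sums were higher in NASH-fib (25119 to 31713) than in CCl4-fib (16042 to 22183), with 1 of 6 markers called lower, whereas both Slits were highest in CCl4-fib. The part of these cell types in the Slit values was not tested. Summed Slit RPKM was 0.197 to 0.432 in HSCs, 23.3 to 35.7 in CCl4-fib and 7.45 to 10.6 in NASH-fib.

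Robo2, a Slit receptor of the nervous system and kidney, read 721, 709 and 806 in HSCs, 96.8, 211 and 134 in the CCl4-fib libraries, and 62.5, 82.8 and 93.4 in NASH-fib. HSC libraries were tightly grouped and above all others, and CCl4-fib was above NASH-fib. Its log2 fold change was -2.40 ± 0.38, adjusted p = 0.00107, in CCl4-fib and -3.23 ± 0.38, adjusted p = 0.000289, in NASH-fib. Robo1, the most widely expressed receptor of the family, read 199.9, 363 and 195 in HSCs, 27.8, 29.8 and 63.0 in the CCl4-fib libraries, and 139, 61.5 and 64.9 in NASH-fib. All fibroblast libraries were below the HSC libraries, and the 2 fibroblast groups overlapped. Only CCl4-fib passed the test (-2.66 ± 0.50, adjusted p = 0.00299), and NASH-fib gave -1.55 ± 0.50, adjusted p = 0.0747. Robo4, the endothelial Robo receptor, read 180.0, 400.4 and 287 in HSCs, 5.56, 0 and 0 in the CCl4-fib libraries, and 23.1, 16.9 and 33.4 in NASH-fib. It was read in each HSC and NASH-fib library but in 1 of 3 CCl4-fib libraries, with 7 reads. The log2 fold change was -7.20 ± 0.76, adjusted p = 0.000104, in CCl4-fib and -3.49 ± 0.76, adjusted p = 0.0115, in NASH-fib. The latter was not called with the label date, the start of a library name read as a date, as a term (-3.77, adjusted p = 0.084). Cdh5, the cadherin of endothelial junctions, lay in the same order of groups and read 548, 948 and 579.8 in HSCs, 3.97, 2.55 and 3.82 in the CCl4-fib libraries, and 192, 40.1 and 131 in NASH-fib. Its part in the Robo4 result was not tested. Summed Robo RPKM was 36.5 to 53.9 in HSCs, 3.85 to 6.77 in CCl4-fib and 5.12 to 7.20 in NASH-fib.

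**Figure D4:**
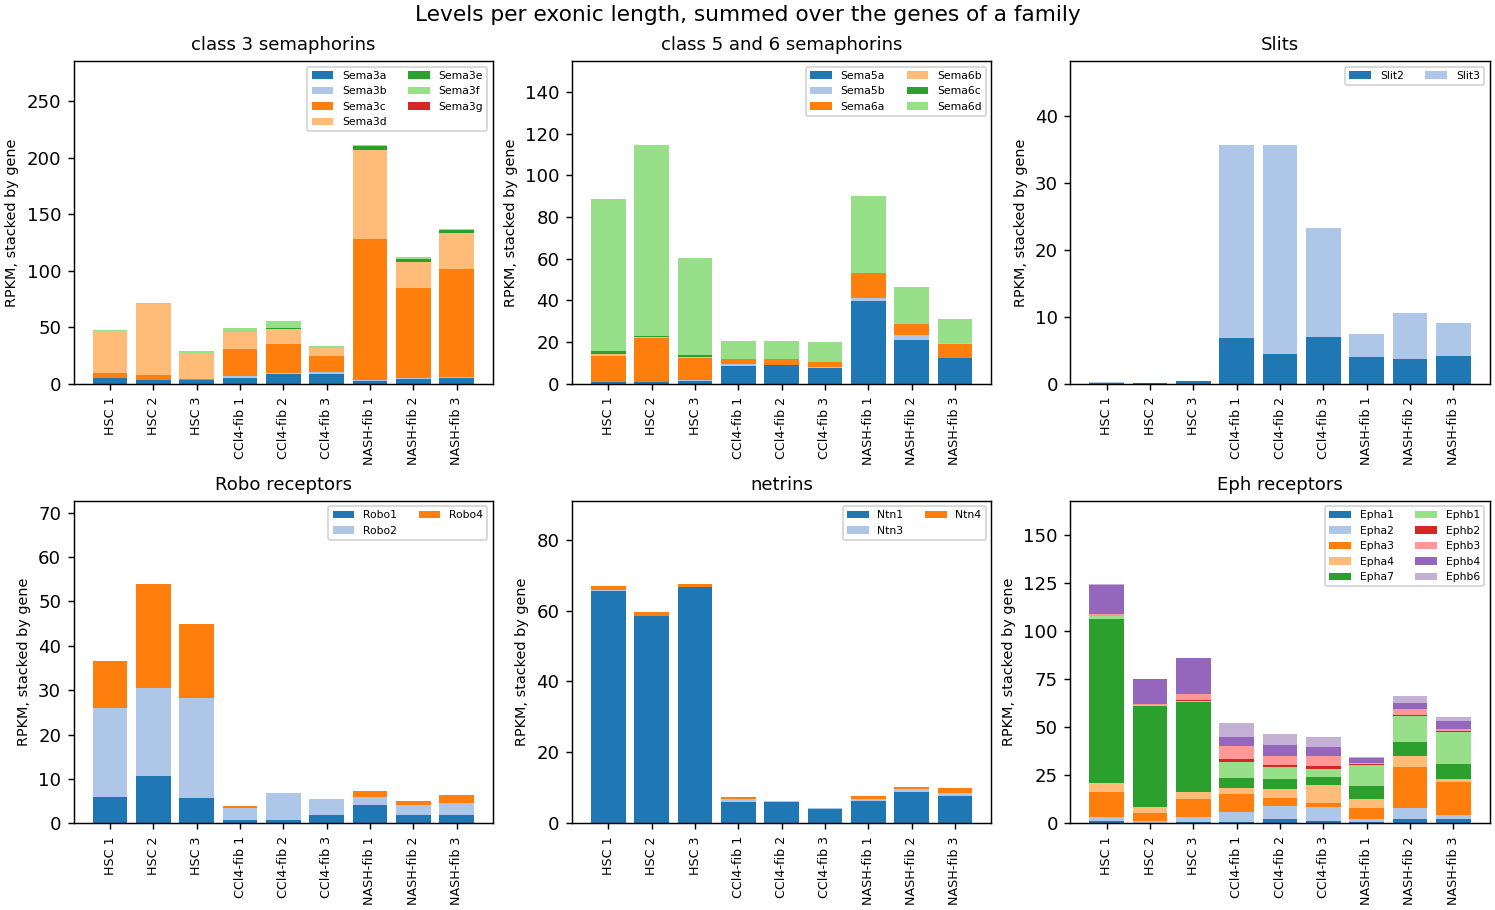
RPKM per library, stacked by gene, for 6 groups of families (each panel on its own linear scale from 0). Summed Slit levels were at most 0.432 in HSCs and at least 7.45 in fibroblasts, summed Robo and netrin levels were highest in HSCs, and Sema3c filled most of the class 3 column in NASH-fib.

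Netrins are laminin-related secreted ligands, and 1 of 3 passed the test. Ntn1 read 1676, 1498 and 1706 in HSCs, 156, 151 and 102 in the CCl4-fib libraries, and 164, 224 and 198 in NASH-fib. HSC libraries lay close together, and each was far above each fibroblast library. Its fall was -3.59 ± 0.32, adjusted p = 4.41e-05, in CCl4-fib and -3.06 ± 0.32, adjusted p = 0.000157, in NASH-fib. Ntn1 held at least 98% of the summed netrin RPKM in HSCs and at least 76.5% in every fibroblast library. Ntn3 and Ntn4 were at most 19.6 in any library and were not called. Among the netrin receptors, Unc5a, which signals repulsion, read 23.4, 26.2 and 35.9 in HSCs, 8.73, 11.9 and 4.77 in the CCl4-fib libraries, and 6.80, 4.45 and 1.97 in NASH-fib. HSCs were above both fibroblast groups in every library. It fell in NASH-fib (-2.53 ± 0.62, adjusted p = 0.0213), where it was not called without HSC 1, HSC 2, HSC 3, NASH-fib 2 or NASH-fib 3 (log2 fold change -2.66 to -2.15, adjusted p = 0.051 to 0.0816), and in CCl4-fib it gave -1.69 ± 0.62, adjusted p = 0.0656. Unc5c read 10.5, 0 and 0 in HSCs, 2.38, 4.25 and 9.54 in the CCl4-fib libraries, and 53.0, 16.9 and 31.4 in NASH-fib. NASH-fib was above all others in each library, with at most 9 reads in HSCs and 10 in CCl4-fib. The rise in NASH-fib was 3.80 ± 1.0, adjusted p = 0.0302, and it was not called without HSC 2, HSC 3, NASH-fib 1 or NASH-fib 3 (log2 fold change 3.22 to 3.78, adjusted p = 0.0744 to 0.102). Unc5b was not called and Unc5d had 1 read in all.

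Ephrins are the membrane-bound ligands of the Eph receptors, and 5 of 8 were tested, with 2 higher in CCl4-fib against HSCs. Efna1, an ephrin known for its induction by inflammatory cytokines, read 44.4, 35.0 and 109 in HSCs, 252, 216 and 221 in the CCl4-fib libraries, and 32.6, 157 and 176 in NASH-fib. CCl4-fib was above all HSC libraries and above all NASH-fib libraries. It rose in CCl4-fib (2.03 ± 0.65, adjusted p = 0.0406) and was not called without HSC 1, HSC 2, CCl4-fib 1, CCl4-fib 2 or CCl4-fib 3 (log2 fold change 1.71 to 2.07, adjusted p = 0.094 to 0.122). Efna2 read 1.17, 0 and 0 in HSCs, 11.9, 15.3 and 10.5 in the CCl4-fib libraries, and 0, 3.56 and 3.93 in NASH-fib. HSCs held 1 read at most, and the rise in CCl4-fib was at least 3.29-fold (3.37 ± 0.83, adjusted p = 0.0127), and Efna2 was not called without CCl4-fib 2 (log2 fold change 3.23, adjusted p = 0.0505). Efna5, the most abundant ephrin, was not called in any comparison. It read 2942, 772 and 1466 in HSCs, 2043, 2651 and 2771 in the CCl4-fib libraries, and 2519, 1772 and 2525 in NASH-fib. The groups overlapped throughout, and the differences from HSCs were 0.72 ± 0.45, adjusted p = 0.258, in CCl4-fib and 0.59 ± 0.45, adjusted p = 0.544, in NASH-fib. Efnb2, the ephrin of arterial endothelium, was also called in none.

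Eph receptors are the largest family of receptor tyrosine kinases, and all 10 members with reads were tested. In CCl4-fib 4 were higher and 2 lower, and in NASH-fib 1 was higher and 2 lower. Epha7, a receptor known from cortical patterning, read 2573, 1577 and 1395 in HSCs, 164, 162 and 114 in the CCl4-fib libraries, and 196, 225 and 234 in NASH-fib. HSC libraries were well above each fibroblast library, and NASH-fib lay just above CCl4-fib without overlap. The log2 fold change was -3.61 ± 0.35, adjusted p = 6.35e-05, in CCl4-fib and -3.03 ± 0.35, adjusted p = 0.000263, in NASH-fib. Ephb4, the venous receptor of ephrin-B2, read 291, 255 and 357 in HSCs, 89.7, 109.7 and 88.7 in the CCl4-fib libraries, and 57.1, 62.3 and 74.7 in NASH-fib. HSCs were highest and NASH-fib lowest, and no groups overlapped. Against HSCs it was -1.63 ± 0.34, adjusted p = 0.00568, in CCl4-fib and -2.20 ± 0.34, adjusted p = 0.00176, in NASH-fib, the latter not called with the label date as a term (-2.10, adjusted p = 0.0733).

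Ephb1 rose in both kinds of fibroblasts, and Ephb3 and Ephb6 were called higher in CCl4-fib only. Ephb1 read 24.6, 11.7 and 10.8 in HSCs, 169.8, 125 and 93.5 in the CCl4-fib libraries, and 234, 279 and 349.9 in NASH-fib. The groups did not overlap, with HSCs lowest and NASH-fib highest. Its log2 fold change was 3.02 ± 0.45, adjusted p = 0.000788, in CCl4-fib and 4.19 ± 0.45, adjusted p = 0.000177, in NASH-fib. Ephb6, which lacks kinase activity, read 9.35, 0 and 4.78 in HSCs, 124, 94.4 and 88.7 in the CCl4-fib libraries, and 6.80, 58.8 and 41.3 in NASH-fib. CCl4-fib was above both other groups, and NASH-fib overlapped with HSCs. It rose in CCl4-fib (4.71 ± 0.95, adjusted p = 0.00446) and did not pass the test in NASH-fib (2.79 ± 0.95, adjusted p = 0.0922). Ephb3 read 15.2, 4.37 and 61.0 in HSCs, 124, 89.3 and 96.4 in the CCl4-fib libraries, and 10.9, 55.2 and 20.6 in NASH-fib. CCl4-fib was the highest group in every library, its rise was 2.56 ± 0.85, adjusted p = 0.0465, and it was not called without HSC 1, HSC 2, CCl4-fib 1, CCl4-fib 2, CCl4-fib 3 or NASH-fib 3 (log2 fold change 1.70 to 2.65, adjusted p = 0.064 to 0.147). In NASH-fib Ephb3 overlapped with HSCs (0.47 ± 0.85, adjusted p = 0.851). Epha2, a receptor of epithelial cells, read 37.4, 18.9 and 43.0 in HSCs, 92.1, 118 and 129 in the CCl4-fib libraries, and 21.8, 102 and 34.4 in NASH-fib. All CCl4-fib libraries were above HSCs, the rise was 1.81 ± 0.59, adjusted p = 0.0443, and Epha2 was not called without HSC 1, HSC 2, CCl4-fib 1, CCl4-fib 2, CCl4-fib 3 or NASH-fib 3 (log2 fold change 1.46 to 1.95, adjusted p = 0.06 to 0.134). Epha1, Epha3, Epha4 and Ephb2 were not called. Ephb4 was above Ephb1 in RPKM in 3 of 3 HSC libraries, and Ephb1 above Ephb4 in 2 of 3 CCl4-fib and 3 of 3 NASH-fib libraries.

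**Figure D5:**
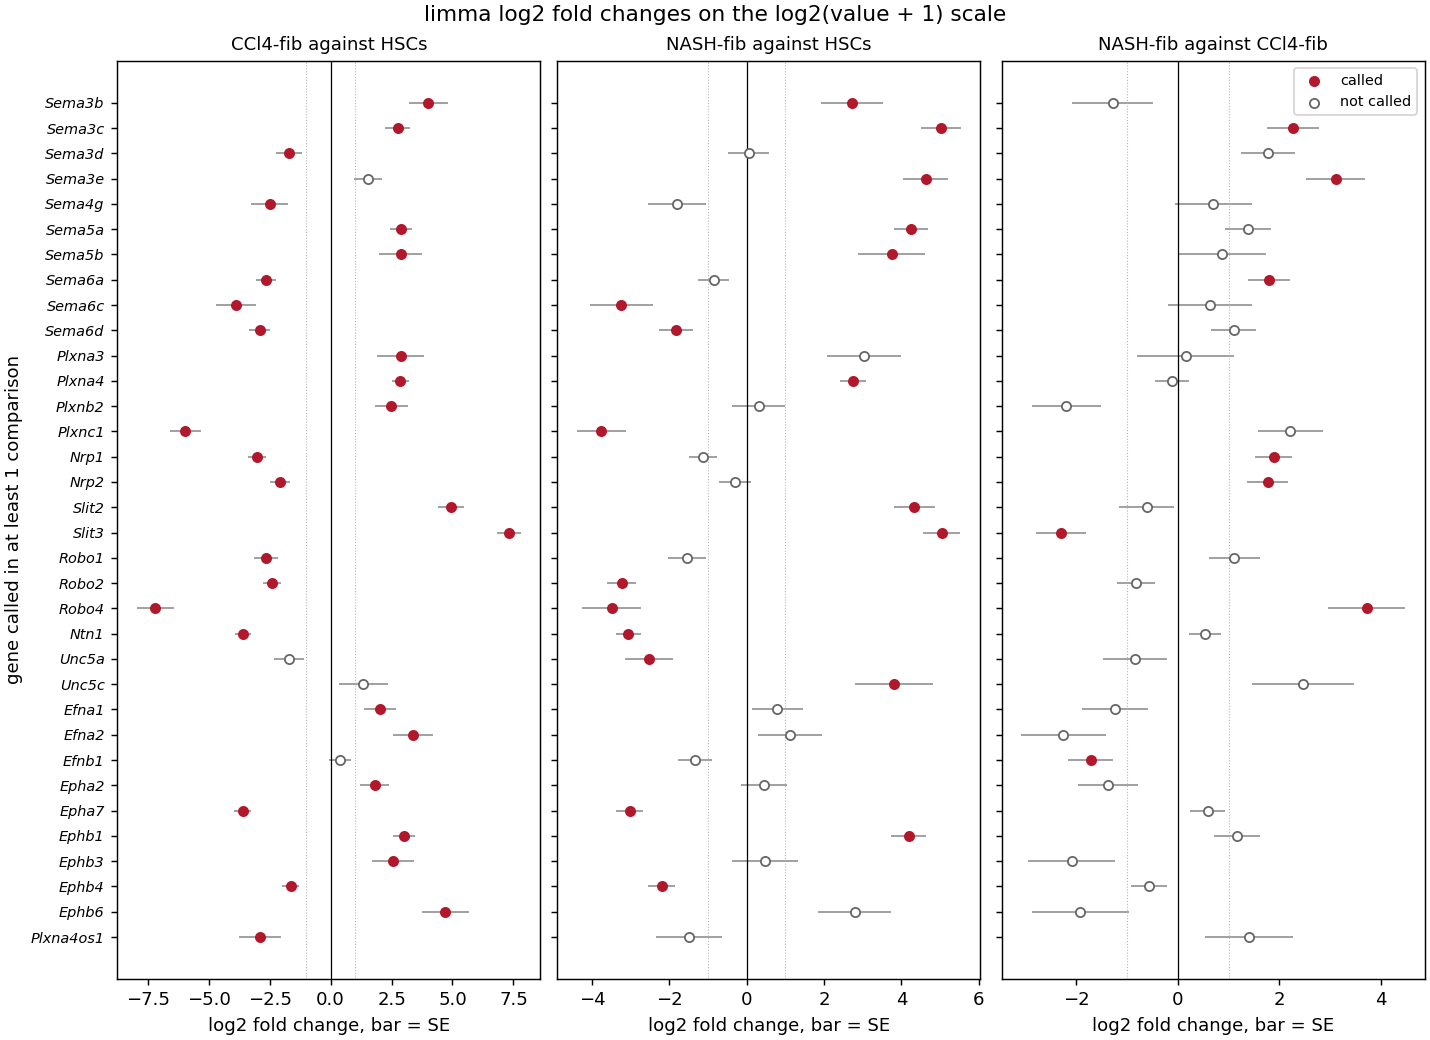
Log2 fold changes (x axis) of the 34 members called in at least 1 comparison, with the SE as a bar, filled red where called and open where not, and dotted lines at 1 and -1. Slit3 had the highest value against HSCs in both kinds of fibroblasts, followed in NASH-fib by Sema3c, and Robo4 the lowest in CCl4-fib and Plxnc1 in NASH-fib.

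Between the 2 kinds of fibroblasts, 6 members were higher in NASH-fib and 2 lower. Those higher were Sema3e (3.10 ± 0.58, adjusted p = 0.0137), Robo4 (3.72 ± 0.76, adjusted p = 0.0175), Sema3c (2.27 ± 0.52, adjusted p = 0.0241), Nrp1 (1.88 ± 0.37, adjusted p = 0.0152), Sema6a (1.79 ± 0.41, adjusted p = 0.0247) and Nrp2 (1.76 ± 0.41, adjusted p = 0.0251). In each of the 6, the NASH-fib libraries were all above the CCl4-fib libraries. Called or not, 15 of the 54 tested members had every NASH-fib library above every CCl4-fib library, which held for 17.1% of all tested genes, and 14 had every NASH-fib library below, which held for 22% of them. Slit3 was lower in NASH-fib (-2.29 ± 0.49, adjusted p = 0.02), as was Efnb1, an ephrin-B ligand, which read 177, 116 and 100.4 in HSCs, 165, 257 and 107 in the CCl4-fib libraries, and 57.1, 36.5 and 59.0 in NASH-fib. Efnb1 was -1.71 ± 0.45, adjusted p = 0.0369, in NASH-fib against CCl4-fib, and its NASH-fib values were below all 6 others. Plxnc1 missed the limit with an adjusted p of 0.0518.

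These 8 calls rested on few libraries, and none of the 8 was kept through every single omission. Without CCl4-fib 2 or NASH-fib 3, limma called 1 member higher. Without NASH-fib 2, 8 were higher and 5 lower. Sema3e was not called without NASH-fib 3 (log2 fold change 3.18, adjusted p = 0.0555). Nrp1 was not called without CCl4-fib 2 or CCl4-fib 3 (log2 fold change 1.70 to 1.85, adjusted p = 0.0534 to 0.0741), and Robo4 was not called without CCl4-fib 2, CCl4-fib 3 or NASH-fib 3 (log2 fold change 3.26 to 3.47, adjusted p = 0.0534 to 0.0794). Sema3c was not called without CCl4-fib 1, CCl4-fib 2, CCl4-fib 3, NASH-fib 1 or NASH-fib 3 (log2 fold change 1.97 to 2.43, adjusted p = 0.0602 to 0.0832). Sema6a and Nrp2 were not called without CCl4-fib 1, CCl4-fib 2, CCl4-fib 3, NASH-fib 1 or NASH-fib 3 (log2 fold change 1.47 to 1.90, adjusted p = 0.0594 to 0.089) and not called without CCl4-fib 1, CCl4-fib 2, NASH-fib 1 or NASH-fib 3 (log2 fold change 1.43 to 1.91, adjusted p = 0.0588 to 0.0871), respectively. Slit3 was not called without CCl4-fib 1, CCl4-fib 2, NASH-fib 1 or NASH-fib 3 (log2 fold change -2.30 to -2.04, adjusted p = 0.0518 to 0.101) and Efnb1 was not called without CCl4-fib 1, CCl4-fib 2, NASH-fib 1, NASH-fib 2 or NASH-fib 3 (log2 fold change -1.83 to -1.40, adjusted p = 0.0597 to 0.166). Scaling by TMM moved the median of all genes in this comparison from -0.11 to 0.07 and the calls among members from 6 higher and 2 lower to 7 and 1, and moved that of CCl4-fib against HSCs from 0.18 to 0.07 with the calls at 15 and 15. Hepatocyte markers (7 of 10), leukocyte markers (5 of 9 tested) and endothelial markers (8 of 12) were higher in NASH-fib than in CCl4-fib, and their part in these calls was not tested.

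By level, Nrp1 came first in HSCs with an RPKM of 165 ± 47.1 (SD, n = 3), followed by Efna5 (73.5 ± 47.2), Plxnc1 (72.1 ± 28.0), Sema6d (70.3 ± 22.6), Ntn1 (63.5 ± 4.38) and Epha7 (61.5 ± 21.1). Neighbours in this order overlapped in their libraries. In CCl4-fib Efna5 led with 106 ± 16.6, above the next, Efna1 (34.8 ± 2.98), in every library, and Efna1 was above Slit3 (25.5 ± 7.99). Below them, Slit3, Sema3c (21.2 ± 6.66) and Nrp1 (20.5 ± 5.83) overlapped. In NASH-fib Sema3c (99.9 ± 23.3), Efna5 (96.7 ± 18.4) and Nrp1 (75.7 ± 22.9) led, and each overlapped with the next. Summed over the families, without the antisense transcript, RPKM was 615 to 818 in HSCs, 410 to 469 in CCl4-fib and 511 to 673 in NASH-fib.

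The rest of the pathway was read from a list of 73 co-receptors, adaptors and cytoskeletal effectors, of which 61 were tested. In CCl4-fib 21 were higher and 5 lower (42.6%, against 27.8% of all genes tested), and in NASH-fib 13 were higher and 4 lower (27.9% against 12.5%). Median log2 fold changes were 0.59 and -0.18, beside 0.18 and -0.02 over all genes. Flrt2, a membrane ligand of Unc5 receptors, read 50.3, 58.2 and 65.8 in HSCs, 1255, 2784 and 2787 in the CCl4-fib libraries, and 971, 436 and 772 in NASH-fib. It was higher in both kinds of fibroblasts (5.18 ± 0.43, adjusted p = 3.3e-05, in CCl4-fib and 3.55 ± 0.43, adjusted p = 0.000349, in NASH-fib) and lower in NASH-fib than in CCl4-fib. Chn1, a Rac regulator downstream of Eph receptors, read 0, 0 and 0 in HSCs, 92.1, 40.8 and 31.5 in the CCl4-fib libraries, and 74.8, 278 and 113 in NASH-fib. It rose at least 40.6-fold in NASH-fib and at least 14.3-fold in CCl4-fib (adjusted p = 7.25e-05 and 0.000156). Pak3, a kinase effector of Rac, Ablim1, an actin-binding protein, and Met, a partner of class B plexins, were called higher in both kinds of fibroblasts and not called between them. Of collapsin response proteins, Dpysl3 was higher in both CCl4-fib (2.44 ± 0.31, adjusted p = 0.000324) and NASH-fib (1.84 ± 0.31, adjusted p = 0.00282) and was not called between them (-0.61 ± 0.31, adjusted p = 0.228). Dpysl2, the most abundant of these proteins by RNA, was not called in any comparison (-0.82 ± 0.31, adjusted p = 0.0755, in CCl4-fib and -0.48 ± 0.31, adjusted p = 0.45, in NASH-fib). Dpysl5 read 0, 0 and 2.39 in HSCs, 36.5, 64.6 and 54.4 in the CCl4-fib libraries, and 0, 0.89 and 0 in NASH-fib. It was read in each CCl4-fib library, with 1 read among the 3 NASH-fib libraries and 2 among the HSC libraries, a difference of at least 13.6-fold from HSCs and 16.04-fold from NASH-fib (adjusted p = 0.000788 and 0.00713). Kdr, the endothelial growth factor receptor that pairs with Nrp1, was lower in CCl4-fib (-3.18 ± 0.33, adjusted p = 9.93e-05) and higher in NASH-fib than in CCl4-fib (1.49 ± 0.33, adjusted p = 0.0233), and is also on the endothelial list. Between the fibroblasts 2 partners were higher in NASH-fib and 7 lower (14.8%, against 10.6% of all genes). Those lower included Cfl1, the actin-severing cofilin (-1.90 ± 0.33, adjusted p = 0.0114), Abl1, a cytoplasmic tyrosine kinase (-1.68 ± 0.37, adjusted p = 0.023), and Cntn1, an adhesion molecule of axons that was at least 7.28-fold lower (adjusted p = 0.0143).

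The members left untested were Efna3, Efna4, Efnb3, Sema3g, Sema6b, Sema7a and Unc5d, with at most 21 reads in any library. Plxna4os1, the antisense transcript, read 39.8, 17.5 and 47.8 in HSCs, 3.17, 10.2 and 0.95 in the CCl4-fib libraries, and 12.2, 3.56 and 26.5 in NASH-fib, and HSCs were above CCl4-fib. It was lower in CCl4-fib (-2.89 ± 0.86, adjusted p = 0.0307), and was not called without HSC 1, HSC 3, CCl4-fib 1 or CCl4-fib 3 (log2 fold change -2.83 to -2.28, adjusted p = 0.0785 to 0.104). Reads of either strand had been counted, so that reads of an antisense transcript cannot be told apart from those of the opposite strand, although no exon base is shared with Plxna4 in the annotation. Of the 61 members, 15 shared an exon base with another annotated gene, and 3, Efna3, Efna4 and Plxna1, shared over 10% of their exon bases, so their counts are uncertain.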

How the data were processed

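RNA was extracted from cells of 3 to 5 pooled mice per library, and SMARTer-amplified cDNA was read from a single end. The deposited unit is a signal for each gene in each library, which the authors made from reads aligned to mm10 with STAR and counted by HOMER on RefSeq exons, on either strand and with at most 3 reads per position, then multiplied by 1 factor per library so that each sums to about 4471991. A normalization over 10 libraries is named in the file header, and 9 are analysed here. CASAVA is also listed in the submitters' processing notes, and versions are not given in the sources used here. Reads were recovered as whole numbers (within 0.05 reads) for 100% of values, at 3071070 to 5634273 reads per library.

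The test had been set as edgeR for counts and limma for other units. Since the values are not counts, limma 3.58.1 (R 4.3.3, eBayes with trend) was fitted to log2(value + 1) of all 9 libraries, on 13651 genes kept by filterByExpr (edgeR 4.0.16, minimum count 10 on recovered reads), with Benjamini-Hochberg adjustment over them. Fold changes on this scale understate those of low genes. The script was tested on simulated data. Where every library of a group had 3 reads or fewer, folds were computed against the mean value of 3 reads in those libraries and given as lower bounds, which cover counting error only. P-values measure the spread between 3 pooled libraries per group, which may be partly technical, and an exact permutation of 3 against 3 cannot go below 0.1. RPKM was the value per kb of exon scaled to a common library sum.

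The members, the partner list and the marker lists were chosen with earlier results of these data known. Members called in any comparison were described by library, at most 8 per family by lowest adjusted p, which left out Sema3d and Sema4g, together with the called partners of the 5 lowest adjusted p per comparison, marker genes, Mc4r, Col1a1, Acta2 and Lrat. Efna5 and the untested members are named outside the description by library. Efna5 was given in full, and the partner Dpysl2 was added, after their values were seen. Alternatives were edgeR and DESeq2 1.42.0 on recovered reads, TMM and upper-quartile scaling, other filters and pseudocounts, a fit on 2 groups, a replicate block, the label date as a term, and each library left out. Protein sequences were not analysed here.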

Additional observations from a re-analysis of the deposited data

How the results depend on the processing

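Among 57 calls of members over the 3 comparisons, 0 reversed direction under any alternative fit, and 31 were kept under every alternative and every omission, 20 in CCl4-fib and 11 in NASH-fib against HSCs. Calls kept were 48 with edgeR, 55 with DESeq2, 56 with TMM and 57 with upper-quartile scaling, 53 with no filter, 44 of the 45 still tested at a minimum count of 50, 55 and 54 at pseudocounts of 0.5 and 5, 53 in the fit on 2 groups and 36 with the label date as a term. With that date term, 9 members were higher in CCl4-fib against HSCs (15 in the report), 4 lower in NASH-fib against HSCs (9) and 0 lower in NASH-fib against CCl4-fib (2; 6 at an unadjusted p under 0.05 in limma). Calls lost with the date term were Efna1, Efna2, Epha2, Ephb3, Plxna3, Plxna4os1, Sema3d, Sema4g and Sema5b in CCl4-fib against HSCs. In NASH-fib against HSCs they were Ephb4, Robo4, Sema3b, Sema5b, Sema6c, Sema6d, Unc5a and Unc5c. Between the fibroblasts they were Efnb1, Nrp2, Sema6a and Slit3. For NASH-fib against CCl4-fib DESeq2 called 12 higher (6) and 5 lower, and edgeR, TMM scaling, the fit on 2 groups and the replicate block each called 1 lower. Leaving out 1 library gave 8 to 16 higher and 13 to 16 lower in CCl4-fib against HSCs, 7 to 10 higher and 6 to 10 lower in NASH-fib against HSCs, and 1 to 8 higher and 0 to 5 lower between the fibroblasts. The cause of these changes was not tested. The replicate numbers did not pair the libraries: over 9 same-numbered pairs the correlation of deviations ran from -0.473 to 0.514, 1 pair was over 0.1, and 3 of 9 libraries correlated best with their own number. The highest correlation between groups was 0.645, for HSC 2 with NASH-fib 1. These 2 libraries share a label date and had the fewest reads (3071070 and 3289758). CCl4-fib 1, of the same date, gave -0.0721 with HSC 2 and -0.127 with NASH-fib 1. With the replicate block, 9 members were higher and 8 lower in NASH-fib against HSCs, 11 and 14 in CCl4-fib against HSCs, and 4 and 1 between the fibroblasts, and 47 of the 57 calls were kept. Label dates were read from the start of the library names, and no label says what was done on them. Of 4 such dates, 1 held all 3 groups, with 1 library each, too few for a value within a date. Depth limits low genes, since 3 reads equal a value of 2.38 to 4.37.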
